A study of Drosophila melanogaster with 30 samples.

Results

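The 6 *Drosophila* sequences 2LHet, 3LHet, 3RHet, XHet, YHet and U of the dm3 assembly hold heterochromatic DNA and DNA with no assigned chromosome. All 300-bp bins on these scaffolds were taken, chosen by position alone, which gives 52737 bins over 15.8 Mb of the 464488 bins over 139 Mb in the series. At 712 of them, or 1.35%, the authors listed a difference in MNase accessibility (MACC) between cell lines in at least 1 of 3 comparisons, a smaller share than the 1.62% of all bins in the series, where 7543 were listed. By scaffold, 493 of the listed bins were on U, 118 on 3RHet, 65 on 3LHet, 17 on 2LHet, 11 on XHet and 8 on YHet. The sequence 2RHet, which also occurs in the lists, is not among the 6 scaffolds.

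Heterochromatin is the compact, repeat-rich part of the genome around the centromeres and on the Y chromosome. It is packed by nucleosomes with methylated histone H3 lysine 9 and by the protein HP1, and it carries few genes among transposable elements and satellite repeats. Polyhomeotic (PH) belongs to another repressive system, Polycomb Repressive Complex 1, which silences developmental genes such as the Hox genes in euchromatin. Its SAM domain lets PH molecules join head to tail into polymers that help Polycomb sites to cluster. In the assembly, sequences named Het were assigned to a chromosome arm, whereas U strings together contigs that had no assignment. Neighborhood along U is therefore not neighborhood on a chromosome, except within a contig.

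The comparison covers 30 libraries of *Drosophila* S2 cells, an embryonic cell line, with 10 libraries for each of 3 cell lines. These lines are S2 cells, S2 cells that stably overexpress wild type PH from an inducible promoter (PH-WT), and S2 cells that overexpress a SAM polymerization defective PH (PH-ML), labelled PH-mut. Each line had 2 experiments with 5 amounts of MNase, labelled 1.65, 6.25, 25, 100 and 400. The series' design text gives 1.5 U for the lowest amount. The labels give 3 days of induction with 0.5 mM CuSO4 for all samples, and both transgenic lines keep their endogenous PH, so the mutant protein is present beside the endogenous one. Each construct is represented by a single line, so a difference between cultures and an effect of the construct cannot be told apart.

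MACC is the slope of the released reads in a bin against the logarithm of the amount of MNase, corrected for GC content, and a higher value stands for more accessible chromatin. Below, a bin named A over B was listed with the higher MACC in line A. The lists give no MACC score, no p-value and no value per library. The identity of the cells and the level of PH could therefore not be checked in them. Depth per library is unknown here, the test behind the lists is not stated, and no spread between replicates could be computed. Bins are not replicates, so no test was made between scaffolds or with other chromosomes. Shares are given with a 95% Wilson interval, which covers counting error only. Densities refer to the scaffold length up to its last listed bin. Only uniquely mapped reads were kept, and how many bins of these repeat-rich scaffolds could be measured at all is not given, so that densities per Mb of measurable sequence can be higher than those printed. No dm3 sequence was used here, and neither bases nor genes of the bins are shown.

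In PH-ML–expressing cells, 104 bins on the scaffolds had a higher MACC than in S2 cells and 31 had a lower one. These 135 bins are 0.256% of the bins on the scaffolds (0.216% to 0.303%), beside 0.174% over all sequences. For bins higher in PH-ML the background is 0.129% and for bins higher in S2 it is 0.0452%. The density was 8.53 bins per Mb, compared with 5.35 per Mb on the chromosome arms 2L, 2R, 3L, 3R and X together, a ratio of 1.60. Among these arms it ranged from 3.12 per Mb on X to 7.03 per Mb on 3L. Without U the 5 other scaffolds together had 4.84 bins per Mb, below the arms, although only XHet and 3LHet were below the arms taken singly.

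U alone had 107 of the 135 bins, or 10.7 per Mb (8.83 to 12.9). On 3RHet 18 bins were listed, 7.34 per Mb (4.64 to 11.6), above every single arm but with an interval that includes the 5.35 of the arms together. On 3LHet, of nearly the same length, only 4 bins were listed, 1.63 per Mb (0.633 to 4.18). 2LHet had 4 bins, or 10.8 per Mb (4.22 to 27.8), YHet had 2, or 6.43 per Mb (1.76 to 23.3), and XHet had none among 646, for which the interval reaches 0.591%.

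In the direction of change, 77.0% of the bins on the scaffolds were PH-ML over S2 (69.3% to 83.3%), and the interval includes the 73.6% of the arms. U had 84 bins PH-ML over S2 and 23 S2 over PH-ML, and 3RHet had 14 and 4. All 4 bins on 3LHet were higher in PH-ML. The 2 bins on YHet were both higher in S2, and 2LHet was split into 2 and 2. These last 3 scaffolds hold too few bins to give a share, with intervals of 51.0% to 100%, 0% to 65.8% and 15.0% to 85.0% for the part higher in PH-ML.

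Cells that overexpress PH-WT showed the opposite majority. Here 159 bins on the scaffolds had a lower MACC in PH-WT–expressing cells than in S2 cells, and 29 had a higher one. Together they are 0.356% of the bins on the scaffolds (0.309% to 0.411%), beside 0.305% over all sequences. The background for bins higher in PH-WT is 0.0721% and that for bins higher in S2 is 0.233%. The density was 11.9 per Mb against 10.0 per Mb on the arms, where it ran from 8.84 on 2R to 11.8 on 3L. Without U it was 9.85 per Mb.

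Of the scaffolds with more than 10 listed bins in this comparison, 3RHet had the highest density at 15.1 per Mb (10.9 to 20.8), followed by U with 13.1 per Mb (11 to 15.5), and their intervals overlap. 3LHet had 4.47 per Mb (2.50 to 8), below the interval of either. Only 15.4% of the bins on the scaffolds were higher in PH-WT (11% to 21.3%), and the interval lies below that of the arms, 24.9% (22.5% to 27.4%). On a single arm, 2R, the share was 13.4%, so that the scaffolds are within the range of the arms.

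The scaffolds assigned to chromosome 3 were nearly one-sided. On 3RHet 36 of 37 bins were S2 over PH-WT, and on 3LHet all 11 were. For 3LHet the interval of the share higher in PH-WT, 0% to 25.9%, includes the 24.9% of the arms. The single exception on 3RHet leaves a share of 2.70% higher in PH-WT (0.479% to 13.8%), whereas U had 18.3% (12.6% to 25.8%), with 24 bins PH-WT over S2 and 107 the reverse. Since U holds most of the bins that are higher in PH-WT, the share over the 5 other scaffolds is 8.77%. YHet went the other way in number, with 3 bins PH-WT over S2 and 2 the reverse, 2LHet had 1 and 2, and the only bin on XHet was higher in S2.

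The direct comparison of PH-ML with PH-WT had the most bins on the scaffolds. A higher MACC in PH-ML was listed for 445 bins and a higher MACC in PH-WT for 205. These 650 bins are 1.23% of the bins on the scaffolds (1.14% to 1.33%), compared with 1.49% over all sequences. The background for bins higher in PH-ML is 0.788% and for bins higher in PH-WT 0.707%. In contrast to both comparisons with S2, the density on the scaffolds, 41.1 per Mb (38.1 to 44.3), was below that of the arms together, 50.7 per Mb (49.5 to 52.0), although X had only 30.7 per Mb.

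The lower density came from 1 direction. Bins higher in PH-WT had a density of 13.0 per Mb on the scaffolds and 25.3 per Mb on the arms, a ratio of 0.511. Bins higher in PH-ML had 28.1 per Mb on the scaffolds and 25.4 per Mb on the arms, a ratio of 1.11. Thus 68.5% of the bins on the scaffolds were higher in PH-ML (64.8% to 71.9%), whereas the arms were split evenly, with 50% (48.8% to 51.3%). The share on the scaffolds was also above that of each arm, the highest being 57.6% on 2L (54.9% to 60.3%). Chromosome 4, which is rich in heterochromatin marks, was further on the same side. There 134 of 148 bins, or 90.5%, were higher in PH-ML (84.7% to 94.3%). No share with an interval was computed for 2RHet, which is not among the scaffolds taken here. Over all sequences 3658 bins were higher in PH-ML and 3284 in PH-WT. The bins of 2RHet are what the scaffolds, the arms and chromosome 4 leave of these. They were closer to an even split than the bins on the scaffolds. Whether heterochromatic sequence in general leans toward PH-ML was not tested. Counting regions of bins of 1 direction within 1 kb of each other in place of single bins, the share on the scaffolds was 61.3%.

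**Figure D1:**
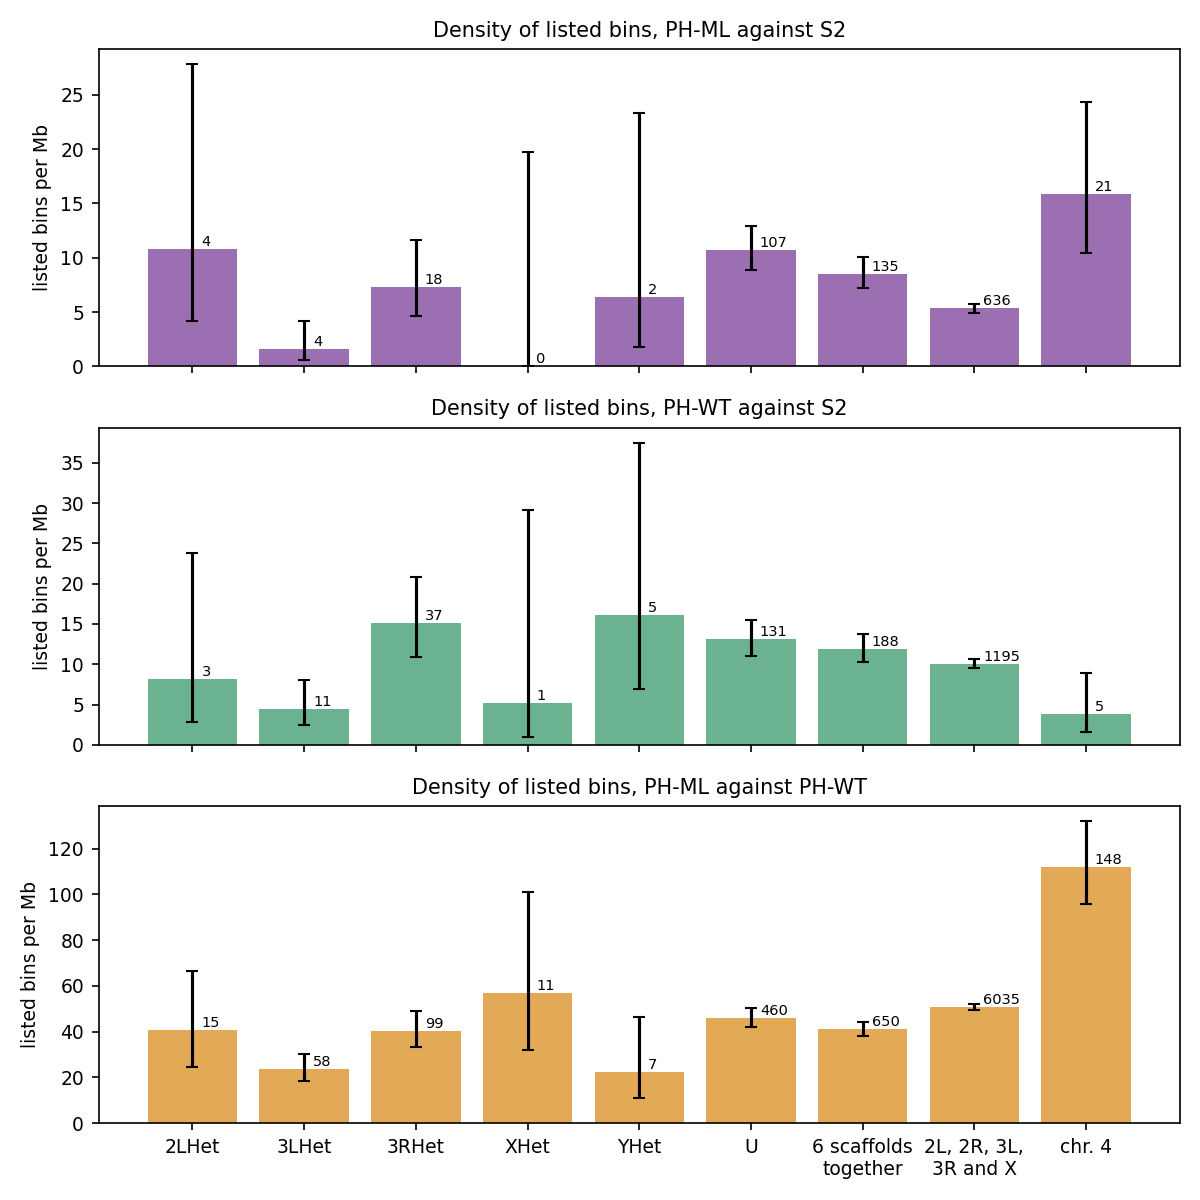
Listed bins per Mb on each scaffold, on the 6 scaffolds together, on the arms 2L, 2R, 3L, 3R and X together and on chromosome 4, in 1 panel per comparison. Bars start at 0, error bars are 95% Wilson intervals and the numbers are listed bins. The scaffolds together lie above the arms for PH-ML against S2 (8.53 and 5.35 per Mb) and below them for PH-ML against PH-WT (41.1 and 50.7 per Mb), and the intervals of XHet, YHet and 2LHet are wide.

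The majority higher in PH-ML was found on 4 scaffolds. U had 310 bins in favor of PH-ML and 150 of PH-WT, or 67.4% (63.0% to 71.5%), 3RHet had 77 and 22, or 77.8% (68.6% to 84.8%), 3LHet had 41 and 17, or 70.7% (58.0% to 80.8%), and 2LHet had 11 and 4, or 73.3% (48.0% to 89.1%). These 4 intervals overlap, and that of 2LHet includes an even split. The 2 scaffolds from the sex chromosomes had more bins higher in PH-WT, with 4 PH-ML over PH-WT and 7 of the reverse on XHet and 2 and 5 on YHet. Their intervals, 15.2% to 64.6% and 8.22% to 64.1% higher in PH-ML, include an even split as well.

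**Figure D2:**
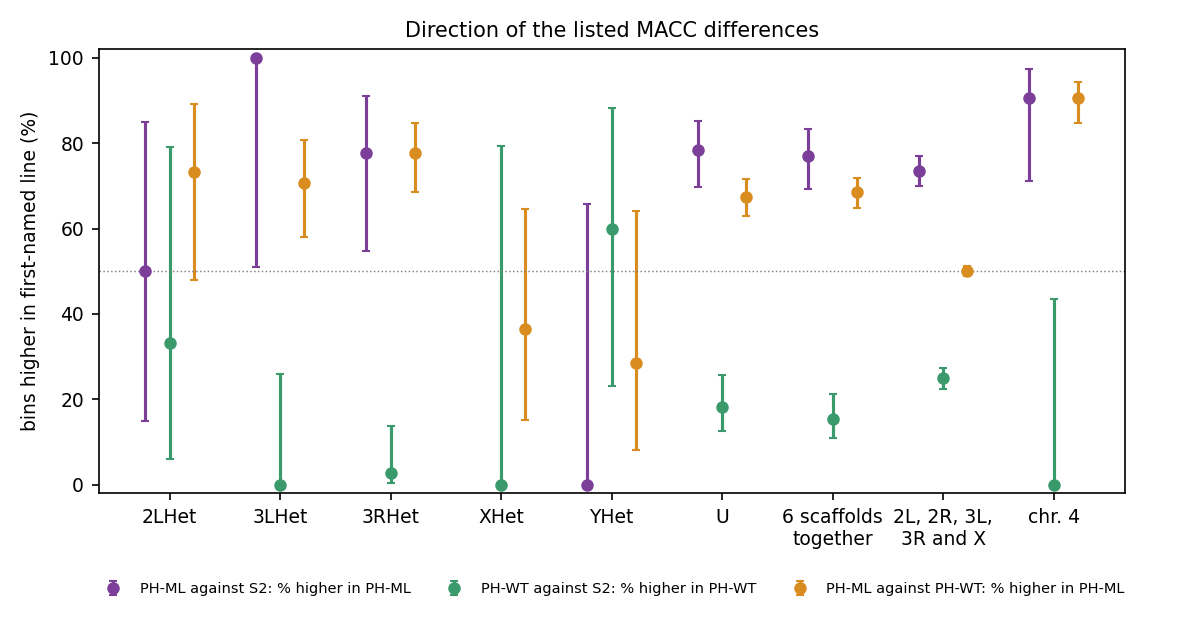
Share of listed bins with the higher MACC in the line named first, in percent, for the same sequences as in the plot of densities. Points are shares in 1 color per comparison, bars are 95% Wilson intervals and the dotted line marks 50%. For PH-ML against PH-WT the 6 scaffolds together are at 68.5% and the arms at 50%; XHet has no bin for PH-ML against S2 and therefore no point.

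Density per Mb of PH-ML against PH-WT was highest on XHet, at 56.8 (31.8 to 101), and then 45.8 on U (41.9 to 50.2), 40.7 on 2LHet (24.7 to 66.7), 40.3 on 3RHet (33.2 to 49.0), 23.6 on 3LHet (18.3 to 30.4) and 22.5 on YHet (10.9 to 46.2). The order from XHet to 3RHet is not resolved, because these intervals overlap. That of 3LHet lies below those of U, 3RHet and XHet. 3LHet and 3RHet span 2.46 and 2.45 Mb, and 3LHet had the lower density in all 3 comparisons.

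The 3 comparisons did not relate to each other on the scaffolds in the same numbers as on the arms. For each bin of PH-ML against S2 there were 4.81 bins of PH-ML against PH-WT on the scaffolds and 9.49 on the arms. On the single arms this ratio ran from 7.85 on 3L to 11.8 on 2R, and on U it was 4.30. On 3LHet, with 4 bins in the smaller list, it was 14.5. The scaffolds made up 11.4% of the spanned bins and held 17.3% of all bins PH-ML over S2, 14.8% of those S2 over PH-ML, 14.7% of those S2 over PH-WT, 12.2% of those PH-ML over PH-WT, 8.66% of those PH-WT over S2 and 6.24% of those PH-WT over PH-ML. The 2 directions in which PH-WT was the higher line were thus those with a smaller part on the scaffolds than the scaffolds' part of the length.

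Each pair of comparisons shares the libraries of 1 cell line, so a bin with an extreme value in 1 line can enter 2 lists. As an account of the members, 502 of the 712 bins (70.5%) were listed in 1 comparison, 159 in 2 and 51 in 3. No such counts were made for the arms or for all sequences. Whether the overlap between lists is particular to the scaffolds is therefore unknown. The largest classes were bins listed only between the PH lines, 279 PH-ML over PH-WT and 161 the reverse. At 64 bins PH-WT was listed below PH-ML and below S2, and at 58 PH-ML was listed above PH-WT and above S2, with no further listing. All 3 lists placed PH-ML first, S2 next and PH-WT last at 43 bins, 38 of them on U, and the reverse order at 7, of which 6 were on U and 1 on YHet.

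Most runs of adjacent bins with 1 direction on the scaffolds consisted of a single bin, and the longest had 6 bins, or 1.8 kb. The arms, which span more sequence, had longer runs in each comparison. Their longest had 16 bins for PH-ML against S2, 11 for PH-WT against S2 and 16 for PH-ML against PH-WT. For PH-ML against PH-WT the 445 bins higher in PH-ML made 277 runs, of which 180 were a single bin and 40 had 3 bins or more, up to 6. The 205 bins higher in PH-WT made 150 runs, with 113 of a single bin and 11 of 3 or more, up to 5. Against S2, the bins higher in PH-ML made 72 runs with a longest of 4 bins, and those lower in PH-WT made 129 runs with a longest of 5. In the 2 smaller directions, S2 over PH-ML and PH-WT over S2, no run had more than 2 bins.

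Bins of PH-ML against PH-WT had an adjacent listed bin more often on the scaffolds than on the arms, at 55.1% (51.2% to 58.9%) and 40.7% (39.5% to 41.9%). Chromosome 4 had a share like that of the scaffolds, 53.4% (45.4% to 61.2%). U had 59.8% (55.2% to 64.2%), and without U the share was 43.7%. For PH-ML against S2 the shares were 42.2% on the scaffolds (34.2% to 50.7%) and 37.7% on the arms, and for PH-WT against S2 31.9% (25.7% to 38.9%) and 35.4%, and in both cases the value of the arms is inside the interval of the scaffolds. On U 47.7% of the bins of PH-ML against S2 had an adjacent listed bin (38.4% to 57.0%) compared with 11.1% of the 18 bins on 3RHet (3.10% to 32.8%), and without U the share for this comparison was 21.4%.

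The direction of a difference was shared between adjacent bins. For PH-ML against PH-WT, 223 of 224 pairs of adjacent bins on the scaffolds had the same direction. Among consecutive listed bins that were not adjacent but had at most 1 kb between them the share was 84.3% (75.3% to 90.4%), from there to 10 kb it was 72.8% (64.0% to 80.1%), and from 10 to 100 kb it was 58.5% (51.0% to 65.6%). Beyond 100 kb it was 67.4% of 46 pairs (53% to 79.1%). This interval overlaps that of the class before, so neither a further fall nor a rise is resolved. The arms had 80.9%, 64.7% and 55.1% in the first 3 of these classes, each within the interval of the scaffolds, and 51.9% in the last, which is below it. These shares were not adjusted for the majority direction, with 68.5% of bins higher in PH-ML on the scaffolds and 50% on the arms.

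In fixed windows of 10 kb the direction was mostly uniform. Of 1585 windows on the scaffolds, 282 held a bin of PH-ML against PH-WT and 88 held 3 or more. In 59 of these 88 all bins were higher in PH-ML, in 12 all were higher in PH-WT and 17 were mixed. Of 11896 windows on the arms 690 held 3 or more, with 231, 195 and 264 in the same order. For PH-WT against S2, 15 windows on the scaffolds held 3 bins or more. Of these, 12 had only bins higher in S2, 2 only bins higher in PH-WT and 1 was mixed. The arms had 123 such windows, with 96, 9 and 18 in the same order. For PH-ML against S2 the scaffolds had 17 such windows, all of them on U. Here 15 had only bins higher in PH-ML, 2 only bins higher in S2 and 0 were mixed. On the arms there were 47, with 29, 13 and 5 in the same order.

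**Figure D3:**
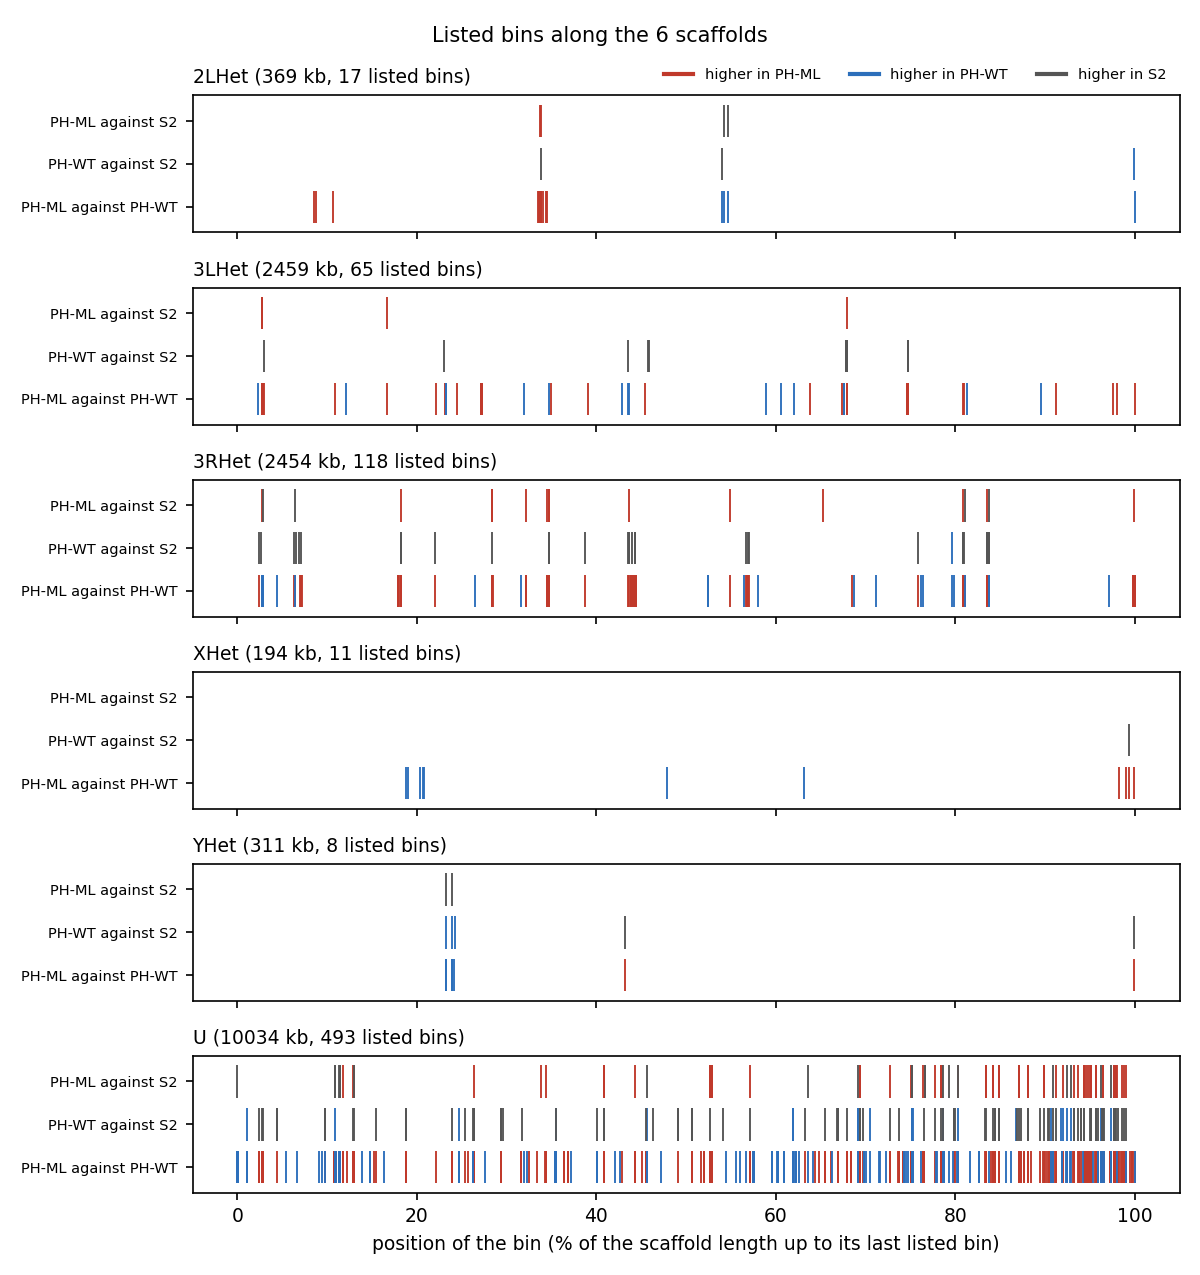
Position of every listed bin along the 6 scaffolds, as a percent of the scaffold length up to its last listed bin, with 1 row per comparison and a color for the line with the higher MACC. On XHet the 7 bins higher in PH-WT precede the 4 higher in PH-ML, and on U the bins become denser toward the end.

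On U the listed bins accumulated toward the end of the sequence. In successive segments of 1 Mb, the number of bins listed in any comparison was between 22 and 60 in the first 9 and 117 in the tenth, from 9000001 to 10000000, which is 23.7% of the bins on U. The tenth segment had the most bins in each comparison, with 38 for PH-ML against S2, 41 for PH-WT against S2 and 111 for PH-ML against PH-WT. Its majorities were those of the scaffolds as a whole, 33 of 38 PH-ML over S2, 34 of 41 S2 over PH-WT and 87 of 111 PH-ML over PH-WT. Without this segment the densities on the 6 scaffolds were 6.54, 9.92 and 36.4 per Mb.

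Direction changed along U too. The share PH-ML over PH-WT was 83.3% of 54 bins in the sixth segment, 82.7% of 52 in the ninth and 78.4% of 111 in the tenth. In the sixth segment 36 of the 45 bins PH-ML over PH-WT lay in a single stretch from 5288101 to 5305800, and without it 9 bins were PH-ML over PH-WT and 9 the reverse, or 50%. It was between 48.3% and 65.0% in the 7 other complete segments, with the lowest value in the eighth, where 28 bins favored PH-ML and 30 PH-WT. In the first segment 8 bins were S2 over PH-WT while no bin was PH-ML over S2, and in the second 7 of 10 bins of PH-ML against S2 were higher in S2.

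**Figure D4:**
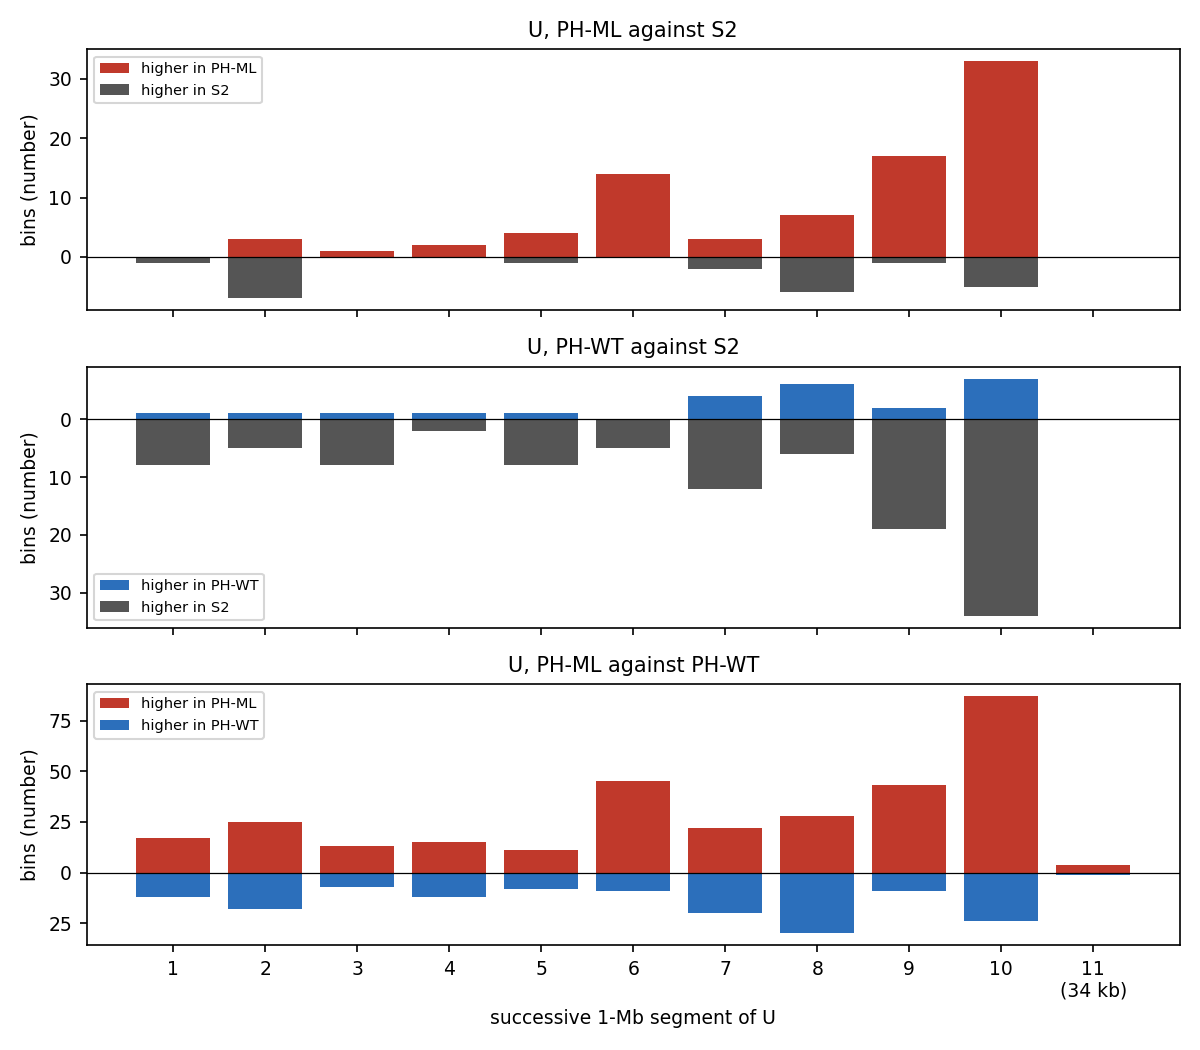
Number of listed bins in successive 1-Mb segments of U, upward for the line named first and downward for the other, in 1 panel per comparison (the last segment is a short remainder). The tenth segment holds 33 bins PH-ML over S2, 34 S2 over PH-WT and 87 PH-ML over PH-WT.

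The stretch with the most listed bins on the scaffolds was on U from 5288101 to 5305800 (dm3), when bins listed in any comparison were joined within 5 kb. It was singled out after its values were seen. Of its 59 bins 36, or 61.0%, were listed, all of them PH-ML over PH-WT. Of these, 13 were PH-ML over S2 too, and none was listed between PH-WT and S2. The stretch held 11.6% of the bins on U that were PH-ML over PH-WT. It includes 2 of the 3 longest runs of that comparison, with 6 bins each from 5297401 to 5299200 and from 5304001 to 5305800, and 3 bins of each run were PH-ML over S2. It overlaps the 2 fullest windows of 10 kb, with 17 bins from 5290001 to 5300000 and 14 from 5300001 to 5310000. Without the stretch 66.6% of the bins on the scaffolds were PH-ML over PH-WT, and the density of PH-ML against S2 was 7.72 per Mb.

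The other long runs on U with PH-ML high or PH-WT low each held bins from all 3 comparisons. The last of the 3 runs of 6 bins PH-ML over PH-WT lay from 6961501 to 6963300. Its first 5 bins, to 6963000, were S2 over PH-WT, which is the longest run of that direction, and 3 were PH-ML over S2. Next in length were 3 runs of 3 bins S2 over PH-WT, from 9602401 to 9603300, from 9795601 to 9796500 and from 9807001 to 9807900. Every bin of these was PH-ML over PH-WT, and 2 bins of the first run and 3 of each of the others were PH-ML over S2. The longest runs PH-ML over S2, with 4 bins each, lay from 8517901 to 8519100 and from 9672001 to 9673200. All 4 bins of either run were PH-ML over PH-WT as well, and 3 bins of the former and 1 of the latter were S2 over PH-WT.

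Runs in the opposite direction had at most 5 bins. The longest ones PH-WT over PH-ML had 5 bins each and lay from 7542901 to 7544400 and from 7888201 to 7889700 on U. In the first, 2 bins were S2 over PH-ML and 2 were PH-WT over S2, and in the second these numbers were 1 and 2. S2 over PH-ML had its longest runs from 7542901 to 7543500, inside the first of these, and from 7684501 to 7685100, where neither bin was listed in another comparison. For PH-WT over S2 there were 3 runs of 2 bins, from 6216901 to 6217500, from 6938701 to 6939300 and from 7888801 to 7889400. Both bins of each were also PH-WT over PH-ML.

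**Figure D5:**
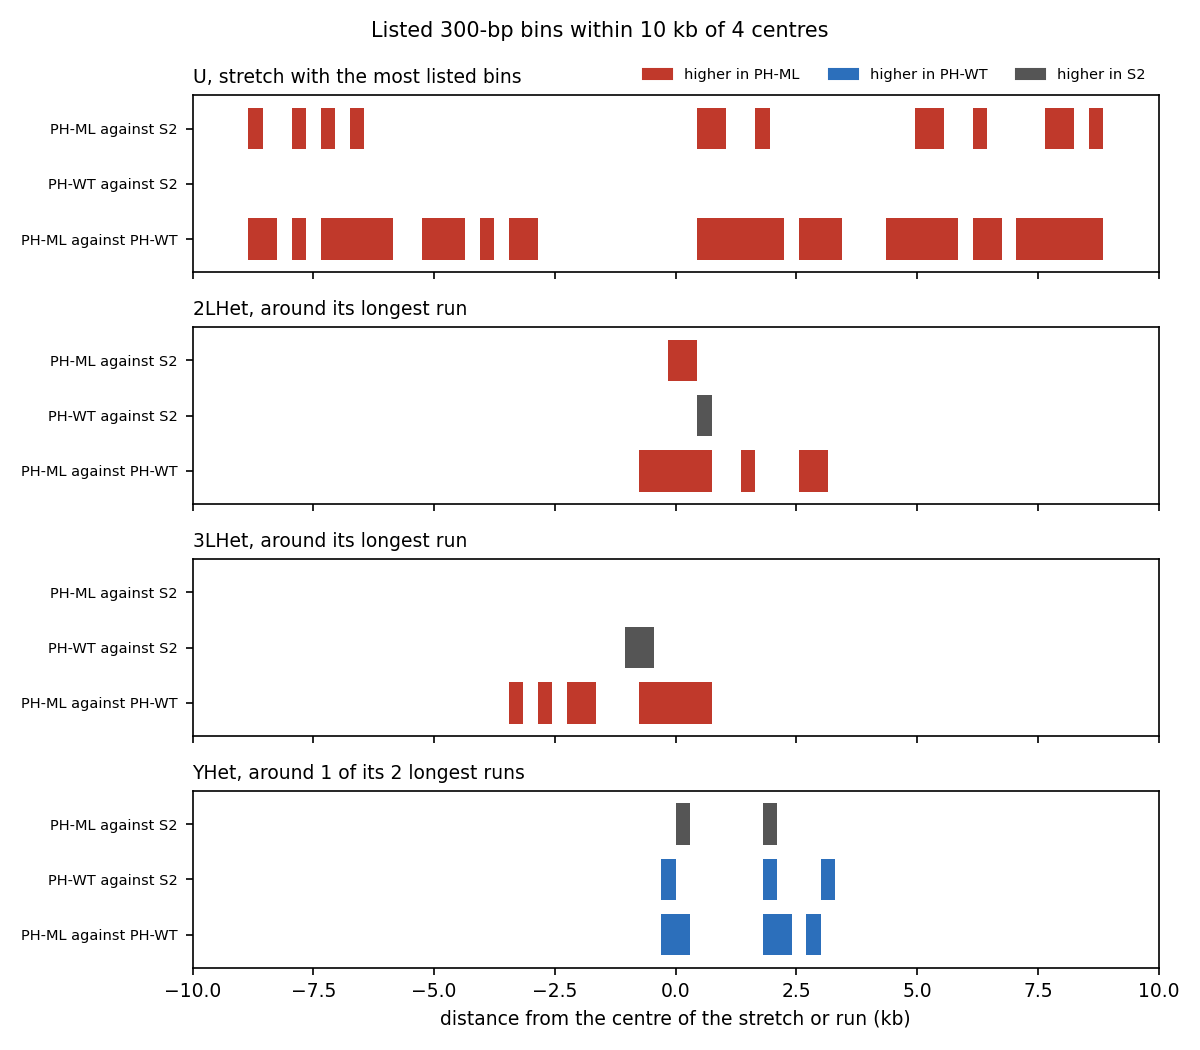
Listed 300-bp bins within 10 kb of the centers of the stretch with the most listed bins on U and of the longest runs on 2LHet and 3LHet and 1 of the 2 longest on YHet, by distance from the center in kb, with a row per comparison and a color for the line with the higher MACC. Between the PH lines the first 3 panels hold only bins PH-ML over PH-WT, 36 of them in the stretch on U, and the panel of YHet only PH-WT over PH-ML.

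Over long segments the listed bins on 3RHet were spread more evenly, with 28, 24, 24, 20 and 22 bins in successive segments of 500 kb, the last of which is shorter. Bins S2 over PH-WT were found in each segment, in numbers of 8, 5, 10, 5 and 8. At 10 kb the bins were clustered in 2 comparisons. Windows with 3 or more held 74.7% of the bins of PH-ML against PH-WT, beside 61.3% on U. For PH-WT against S2 these shares were 56.8% and 20.6%. For PH-ML against S2, 0 windows on 3RHet held 3 or more. The longest runs were 2 of 4 bins, all PH-ML over PH-WT. In the run from 173401 to 174600, 1 bin was S2 over PH-WT, and in that from 2049001 to 2050200, 2 bins were S2 over PH-WT and 1 was PH-ML over S2. From 2050001 to 2060000, 5 bins of a 10-kb window were S2 over PH-WT, a number that no window on the 6 scaffolds exceeded and that was also reached on U. The window overlaps a stretch from 2048101 to 2055000, in which 8 bins were S2 over PH-WT, 7 were PH-ML over PH-WT and 2 were PH-WT over PH-ML. A longer stretch, from 1068301 to 1089000, had 14 listed bins. Of these, 11 were PH-ML over PH-WT, 7 were S2 over PH-WT and 1 was PH-ML over S2. Another stretch, from 845701 to 852900, had 12 bins, all PH-ML over PH-WT, of which 3 were PH-ML over S2 and 2 were S2 over PH-WT.

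On 3LHet the longest run had 5 bins from 1837201 to 1838700, all PH-ML over PH-WT, 1 of them also S2 over PH-WT. It belongs to a stretch from 1834501 to 1838700 with 9 bins PH-ML over PH-WT. In segments of 500 kb the bins of PH-ML against PH-WT numbered 12, 14, 6, 21 and 5, and the middle segment was the only one in which more bins were higher in PH-WT, with 5 against 1.

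The 3 short scaffolds showed blocks of 1 direction. On 2LHet 8 bins from 123601 to 127500 were PH-ML over PH-WT, among them a run of 5 from 123601 to 125100, and 3 further bins of this direction lay between 31201 and 39300. From 198901 to 201900 the direction was reversed, with 3 bins PH-WT over PH-ML and 2 S2 over PH-ML, whereas 1 bin there was S2 over PH-WT. The last 2 listed bins, from 368401 to 369000, were higher in PH-WT, 1 than in S2 and 1 than in PH-ML.

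On XHet the 7 bins PH-WT over PH-ML came first, 5 of them from 36301 to 40500, including the 2 longest runs, of 2 bins each, from 36301 to 36900 and from 39901 to 40500. The 4 bins higher in PH-ML followed from 190201 to 193800, and 1 of these was the only bin on XHet listed against S2, with a lower MACC in PH-WT. On YHet 6 of the 8 bins lay between 72001 and 75600. Of these, 5 were PH-WT over PH-ML, 3 PH-WT over S2 and 2 S2 over PH-ML. The remaining bins, at 134101 and 310801, were both PH-ML over PH-WT and S2 over PH-WT. On YHet the listed differences thus changed sign between the first block and the rest, as they did on XHet, but with 8 and 11 bins in all neither order has a replicate check.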

How the data were processed

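MNase-titration-seq libraries came from S2 cells and from S2 cells expressing PH-WT or PH-ML. Reads were placed on the dm3 assembly by the authors with Bowtie, keeping unique matches and dropping positions with excess tags. MACC is the slope of the read frequency of a 300-bp bin over the logarithm of the MNase amount, after a correction for GC content. The deposited lists hold the bins they called different between 2 lines, with both experiments combined, and no score per bin. Test and threshold are not given in the sources used here. These lists are calls by the authors, and the tables of all 8 lists were read as such.

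Direction was taken from the 3 lists of both directions. The 5 lists of 1 direction held the same bins as the matching directions. No list of 1 direction was read for PH-ML over PH-WT, so these bins were not checked in this way. Counts, densities, runs, gaps and windows were computed with Python 3.11.15, numpy 2.4.6 and scipy 1.17.1, and tested on simulated data. Background percentages are taken across all bins up to the last listed bin of each sequence.

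The regions named are the 2 longest runs per comparison and direction, the longest run per scaffold and the fullest 10-kb window per comparison, with ties named in the text. Stretches and segments were added after values were seen. Members and lists were chosen with earlier results of these data known. Alternatives changed the scaffold length, the scaffolds pooled, the unit counted, the source of direction and the distance to a neighbor.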

Additional observations from a re-analysis of the deposited data

How the results depend on the processing

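Of 84 alternative values for density, direction and adjacency on the 6 scaffolds, 70 stayed within the 95% Wilson interval of the reported value. Some of these could hardly move, such as direction read from lists with identical bins or a value without a short scaffold. All densities and all shares with an adjacent listed bin left their interval without U. Without U the densities were 4.84, 9.85 and 32.8 per Mb for PH-ML against S2, PH-WT against S2 and PH-ML against PH-WT, and without U from 9000001 to 10000000, an alternative added after seeing the data, they were 6.54, 9.92 and 36.4 per Mb. Without U the share PH-WT over S2 was 8.77%, and the shares with an adjacent listed bin were 21.4%, 24.6% and 43.7%. On all 6 scaffolds together the shares with an adjacent listed bin were 42.2%, 31.9% and 55.1%. By construction, a neighbor within 1 kb raised them to 56.3%, 44.1% and 68.6%. Counting regions within 1 kb gave 61.3% PH-ML over PH-WT. The majority direction was the same under every alternative run, for each of the 3 comparisons. A stricter threshold could not be tried, because the lists hold no score. No paired analysis was possible because the lists combine both experiments, and for the same reason no replicate could be left out. Depth per library and the number of measurable bins are unknown, so that an unlisted bin may be unchanged or unmeasured.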

Other observations

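Within the tenth megabase of U the listed bins were not spread evenly. In successive 100-kb segments from 9000001 to 10000000 the bins listed in any comparison numbered 12, 8, 8, 5, 12, 13, 19, 10, 20 and 10. From 9800001 to 9900000, 19 bins were PH-ML over PH-WT and 1 the reverse, 7 were PH-ML over S2 and 7 were S2 over PH-WT. From 9200001 to 9300000 the direction was the other one, with 6 bins PH-WT over PH-ML, 1 the reverse, and 3 PH-WT over S2. These values were looked at after the accumulation on U had been seen, and they have no replicate check.

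A stretch on U from 1094401 to 1103100 was mixed, with a majority toward PH-WT. It held 7 bins PH-WT over PH-ML and 4 PH-ML over PH-WT, with 3 bins S2 over PH-ML and none PH-ML over S2. The 10 stretches with the most listed bins included no other in which bins higher in PH-WT were the majority.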
